A study of Mus musculus with 2 samples.

Results

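Part of the calcium that the kidney filters is reclaimed across the cells of the distal convoluted tubule and connecting tubule. Here, 10 genes of this transport, of calcium binding and of related receptors were followed in kidney RNA from mice lacking *Cnnm2* in the kidney. The genes fall into 4 roles. *Pvalb*, *Calb1* and *S100g* encode calcium-binding proteins, *Trpv5* and *Trpv6* encode entry channels, *Slc8a1*, *Atp2b1* and *Atp2b4* encode an exchanger and pumps that extrude calcium, and *Vdr* and *Casr* encode receptors for vitamin D and for calcium itself. The members were all gene probes of the array that carried 1 of these symbols, which gave 17 probes of 10 genes among 39416 probes and 31821 gene names. Of the 17 probes, 15 could be compared, at least 1 for each of the 10 genes: on each array the scanner software called them well above background, in knockout RNA, in control RNA or in both, and the genotype was the same one on either array. These 15 were compared with all 24593 probes that passed the same filter.

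The samples were kidneys of mice aged 2 months. The knockout was Cnnm2fl/fl;Six2-Cre, in which Cre deletes the floxed *Cnnm2* alleles, and the control was Cnnm2+/+;Six2-Cre. Both genotypes therefore carried the Six2-Cre transgene, a Cre fused to green fluorescent protein and driven by the *Six2* promoter, which is active in the nephron progenitors of the embryonic kidney. Cells of other origin, such as endothelium, do not derive from these progenitors, and the RNA came from kidney tissue rather than from sorted tubule cells. RNA of both genotypes was hybridized together on 2 arrays with exchanged dyes. Knockout RNA was labeled with Cy5 and control RNA with Cy3 on array 1, and the reverse held on array 2. The study's methods speak of male and female mice matched for age and sex in its experiments at large. For these arrays, the number and sex of the mice behind each RNA, and whether both arrays carried the same RNA, are not given in the sources used here. The pair of arrays was therefore counted as 1 replicate of each genotype, and differences have no replicate check across mice. Every SD below is the spread between the 2 arrays. It holds labeling with exchanged dyes, hybridization and, if the arrays carried different RNA, the difference between those RNAs.

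In the distal convoluted tubule and connecting tubule, calcium enters through TRPV5 and TRPV6 in the luminal membrane. It then crosses the cell bound to calbindin-D28k (the product of *Calb1*) and calbindin-D9k (the product of *S100g*), and leaves on the blood side through the sodium-calcium exchanger NCX1 (*Slc8a1*) and the plasma membrane calcium ATPases (*Atp2b1*, *Atp2b4*). Parvalbumin (*Pvalb*), best known from fast muscle fibers and inhibitory neurons, marks the early distal convoluted tubule of rodents. Vitamin D acting through its receptor raises transcription of several of these genes, and the calcium-sensing receptor is densest in the neighboring thick ascending limb.

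Each value below comes from a 60-base probe, and the 3 calcium-binding proteins have 2 probes each. The first 30 bases of these 6 probes are shown, as the deposited scanner files give them, because they tell whether the paired values are separate measurements. Capitals mark bases that both probes of a gene share within the printed stretch.
Pvalb A_55_P2114437: agtttgtttgtgttattttttactccccca
Pvalb A_55_P2059040: ctccaatgacactctatcaattgcttttga
Calb1 A_66_P102374: gaagtagcagttcctgatgaggaataaggg
Calb1 A_55_P2181602: ctcagtgaatgacttagaggtatgagcagt
S100g A_55_P2111163: gctgtgcgattatgATACATACTGTTAATA
S100g A_55_P2013236: ATACATACTGTTAATAaagcaagttcggag
On the mouse build mm9, which the file headers name, the *Pvalb* probes lay on the minus strand at chr15:78021951-78022010 and chr15:78021549-78021608, with starts 402 bases apart. The *Calb1* probes lay on the plus strand at chr4:15835078-15835137 and chr4:15833582-15833641, with starts 1496 bases apart. Neither pair shared a base, so each gave 2 separate readings. Whether both *Calb1* probes read the same transcript was not analysed here. The *S100g* probes, on the minus strand at chrX:159399938-159399997 and chrX:159399924-159399983, shared 46 of their 60 bases, and their readings are close to 1 measurement made with 2 spots. The exon or untranslated region that each probe lies in was not analysed here, because no mm9 annotation was used.

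The 6 probes of the 3 calcium-binding proteins were all lower in the knockout sample on both arrays, whereas of the 9 probes of channels, extruders and receptors 2 were lower on both arrays, 2 were higher and 5 changed sign with the dyes. By the rule of a mean ratio of at least 2-fold with the same direction on both arrays, 3 of the 15 member probes were lower (both probes of *Pvalb* and the brighter probe of *Calb1*), against 0.26% of all probes. None was higher, against 0.313% of all probes. The milder rule of at least 1.5-fold on each array gave the same 3 probes as lower, against 0.512% of all probes, and none as higher, against 0.488%. Of the 15, 8 were lower on both arrays without regard to size, 6 of them probes of calcium-binding proteins, against 14.8% of all probes, and 2 were higher on both (*Trpv6* and *Vdr*), against 12.2%. The remaining 5 were higher on 1 array and lower on the other. The 2 *S100g* probes, which share most of their bases, enter these counts and the medians below as 2 probes, though they are close to 1 measurement. With 1 replicate per genotype these counts carry no test, and the genes were selected with results of these arrays already known.

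The median log2 ratio of knockout over control was -0.21 over the 15 member probes, -0.80 over the 6 probes of calcium-binding proteins and -0.07 over the other 9, beside -0.0029 over all probes. Across all probes, the ratios of the 2 arrays had a Pearson correlation of -0.55 (Spearman -0.59, over 24593 probes that share 2 arrays and are not independent), since an effect of the dye turns its sign when the dyes are exchanged. The direction is set by the dye labels, and *Cnnm2* served as its check: knockout RNA gave signals of 626 and 591 and control RNA gave 4620 and 3247 on arrays 1 and 2, a mean log2 ratio of -2.67 ± 0.30 (SD over 2 arrays). Whether that probe lies in the deleted part of the gene is not given in the sources used here. The SD between arrays had a median of 0.31 over all probes and 0.32 over the member probes. This spread includes the effect of the dye, which cancels in the mean of the arrays. It is therefore not the error of a mean ratio, which was not measured here. The mean ratios of all probes had an SD of 0.23. Of the 15 member probes, 10 had a mean ratio larger than their own SD between arrays, against 20.1% of all probes. With 2 arrays this is possible only where both share a direction. The 10 were the probes already counted as lower or higher on both arrays, so the count is not separate support.

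**Figure D1:**
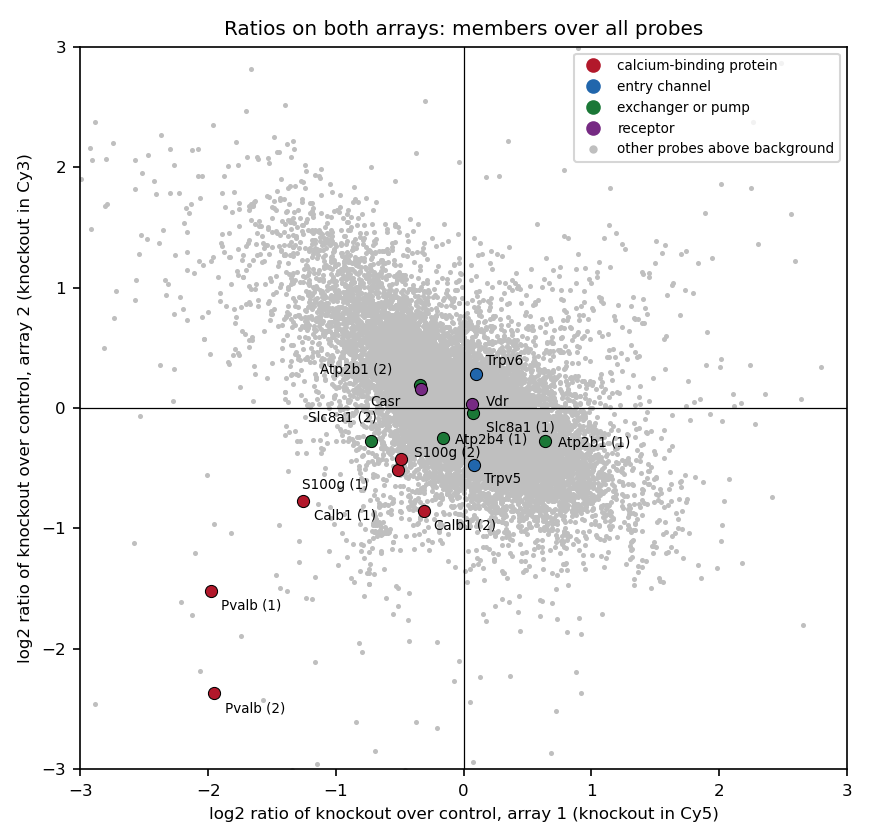
Log2 ratio of knockout over control on array 1 (horizontal axis) and array 2 (vertical axis) for probes above background; grey points are all probes (29 of 24593 lie outside the axes) and colored points are the 15 member probes by role, numbered (1) and (2) by falling brightness where a gene has several. The 6 red points of calcium-binding proteins lie in the lower left quadrant, where both arrays read lower in the knockout, while most grey points run from upper left to lower right, where the arrays disagree in sign.

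Parvalbumin showed the deepest decrease of the 10 genes. The brighter *Pvalb* probe, A_55_P2114437, gave signals of 662 in the knockout and 2612 in the control on array 1, and of 771 and 2210 on array 2. Both knockout signals lay below both control signals. The mean log2 ratio was -1.75 ± 0.33 (SD over 2 arrays), with -1.98 and -1.52 on the single arrays, so that the knockout signal was 29.7% of control. This placed the probe 18th from the lowest of 24593. The second probe, A_55_P2059040, was dimmer and fell further, with knockout signals of 215 and 145 and control signals of 831 and 748 on arrays 1 and 2. Its knockout and control signals also did not overlap, and the mean log2 ratio of -2.16 ± 0.30 left 22.4% of the control signal, the 8th lowest of all probes. Among the 12697 probes at least as bright as the dimmer *Pvalb* probe, 6 (0.0473%), including both of *Pvalb*, had a mean ratio as low as that of the brighter one. On array 1 the *Pvalb* probes differed by 0.03 in log2 ratio and on array 2 by 0.85, with the order of the arrays opposite between them. In whole-kidney RNA, fewer parvalbumin-expressing cells and less *Pvalb* RNA per cell cannot be told apart, and the same holds for every gene below.

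Because parvalbumin is also abundant in fast skeletal muscle, muscle markers were read beside it. Of 10 such markers, 6 were not well above background in any of the 4 channels, among them the fast myosin heavy chains *Myh1*, *Myh2* and *Myh4*, the regulatory light chain *Mylpf* and the muscle creatine kinase *Ckm*. The 4 others had a median log2 ratio of 0.05. Summed over all 10 markers, the signal ranged from 156 to 187 in the knockout and from 141 to 184 in the control, ranges that overlap.

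*Calb1* was lower by about 2-fold at 1 probe and by less at the other. Its brighter probe, A_66_P102374, read 2267 in the knockout and 5415 in the control on array 1, and 1883 and 3212 on array 2. No knockout signal reached a control signal. The mean log2 ratio was -1.01 ± 0.34, which is 49.5% of control, and the value on array 2 alone, -0.77, was short of 2-fold. So was the mean with loess, at -0.94 after a normexp correction and -0.99 without background correction. The other probe, A_55_P2181602, gave 522 and 387 in the knockout against 648 and 698 in the control. These signals again did not overlap, but the mean log2 ratio was only -0.58 ± 0.38, or 66.8% of control. The disagreement lay on array 1, where the log2 ratios of the probes were -1.26 and -0.31, a gap of 0.94. On array 2 the gap was 0.08. The file names the gene of the brighter probe through an Ensembl transcript that the RefSeq table used here does not list, so the symbol *Calb1* for that probe rests on the file alone. The accessions of the other 16 member probes matched their symbol in that table.

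*S100g* was lower by a small ratio of nearly identical size on both arrays. Probe A_55_P2111163 read 43422 in the knockout and 62024 in the control on array 1, and 28307 and 40387 on array 2. Within each array the knockout was dimmer, although the knockout signal of array 1 exceeded the control signal of array 2, since both genotypes were brighter on array 1. The log2 ratio was -0.51 on each array (mean -0.51 ± 0.0012), which is 70.0% of control. For this probe, the error that the scanner software gives each single ratio was 0.21 on both arrays, far larger than that SD. The overlapping partner, A_55_P2013236, gave 34978 and 27142 in the knockout against 49002 and 36403 in the control, with no overlap. Its mean log2 ratio was -0.45 ± 0.04, or 73.0% of control. No spot of either probe was saturated. Among the 551 probes at least as bright as the dimmer *S100g* probe, the SD of the mean log2 ratio was 0.14, against 0.23 over all probes, and 4 probes (0.726%), including both of *S100g*, were as low as its higher mean.

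**Figure D2:**
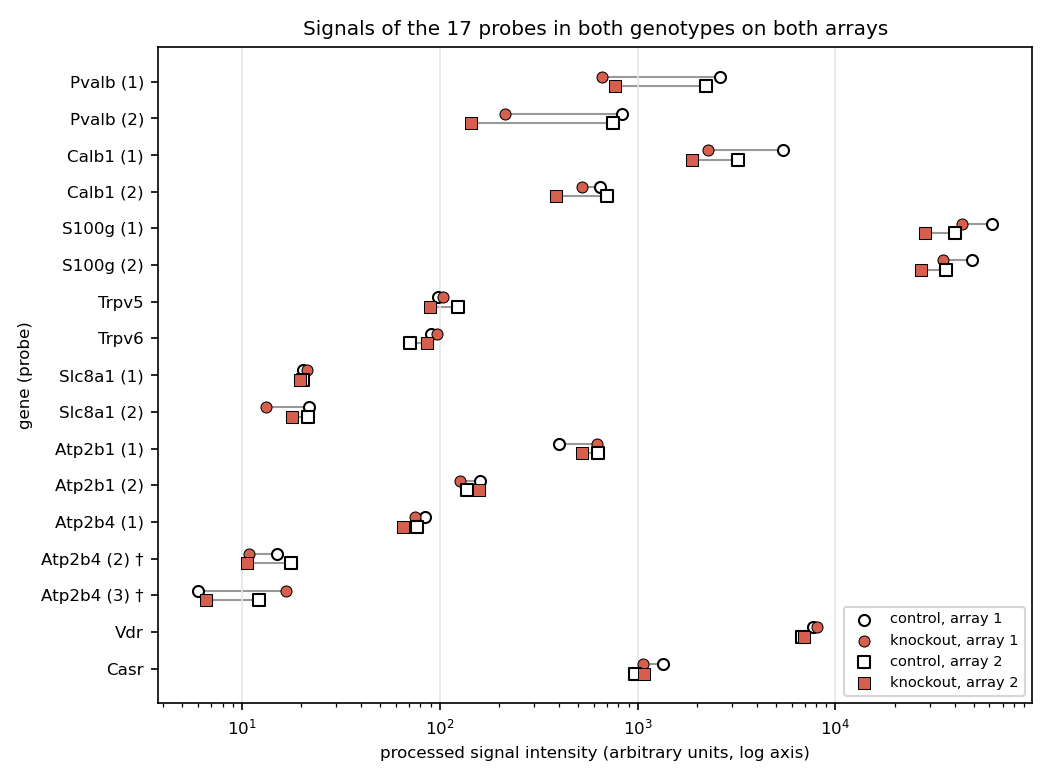
Processed signal intensity (arbitrary units, log axis) of each of the 17 member probes, with knockout as filled and control as open symbols, circles for array 1 and squares for array 2, joined by a line within each array; a dagger marks the 2 *Atp2b4* probes that were too dim to be compared. Filled symbols lie left of the open symbols on both arrays for the 6 probes of *Pvalb*, *Calb1* and *S100g*, by 3.36-fold for the brighter *Pvalb* probe, while those of *Vdr* nearly coincide.

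Neither entry channel was lower in the knockout on both arrays. *Trpv5*, the principal calcium channel of the distal tubule, gave knockout signals of 104 and 89.2 against control signals of 98.4 and 124. The groups overlapped, the log2 ratios of 0.08 and -0.47 had opposite signs, and the mean of -0.19 ± 0.39 was smaller than the spread between arrays. *Trpv6*, its close relative that carries calcium in intestine and placenta, read 97.1 and 86.2 in the knockout against 90.9 and 70.7 in the control. Both arrays read it slightly higher, by log2 ratios of 0.09 and 0.29 and a mean of 0.19 ± 0.14, though the signals of the genotypes overlapped across arrays. Both channels were measured by 1 probe each, at chr6:41602985-41603044 for *Trpv5* and chr6:41570624-41570683 for *Trpv6*, minus strand. The error that the scanner software gives each single ratio was 0.21 for *Trpv6* on array 1, larger than the ratio itself, and 0.21 on array 2.

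Extrusion genes had ratios near 0 or probes that disagreed. The brighter *Slc8a1* probe, A_55_P2080758, read 21.4 and 19.7 in the knockout against 20.3 and 20.3 in the control, with a mean log2 ratio of 0.02 ± 0.08. The second, A_55_P2292435, which lies 56969 bases away on chromosome 17, read 13.3 and 17.9 against 22.0 and 21.5. Its signals did not overlap and its mean log2 ratio was -0.50 ± 0.32, at signals of 22.0 or less in every channel. The same probe was at -0.18 after loess normalization without background correction, and at -0.11 after loess with a normexp background correction and an offset of 50. The 2 probes of the exchanger therefore differed by 0.81 in log2 ratio on array 1 and by 0.23 on array 2.

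The plasma membrane calcium pumps showed no shared shift. *Atp2b1* encodes PMCA1, the pump found in most cells, and its brighter probe, A_66_P138001, read 622 and 523 in the knockout against 399 and 631 in the control. It was higher on array 1 (log2 ratio 0.64) and lower on array 2 (-0.27), a mean of 0.19 ± 0.64. Its other probe, A_65_P10351, 54105 bases away on chromosome 10, had the opposite order, with -0.34 and 0.19 and a mean of -0.07 ± 0.38. *Atp2b4* encodes PMCA4, and its only probe that passed the filter, A_55_P2125714, read 75.0 and 65.0 against 84.0 and 77.2. These signals did not overlap, with log2 ratios of -0.16 and -0.25 and a mean of -0.21 ± 0.06, which ranked 2632nd from the lowest of all probes. The other 2 *Atp2b4* probes had signals of 6.02 to 17.6 and were not compared; A_55_P1985265 among them went from 1.48 on array 1 to -0.88 on array 2.

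**Figure D3:**
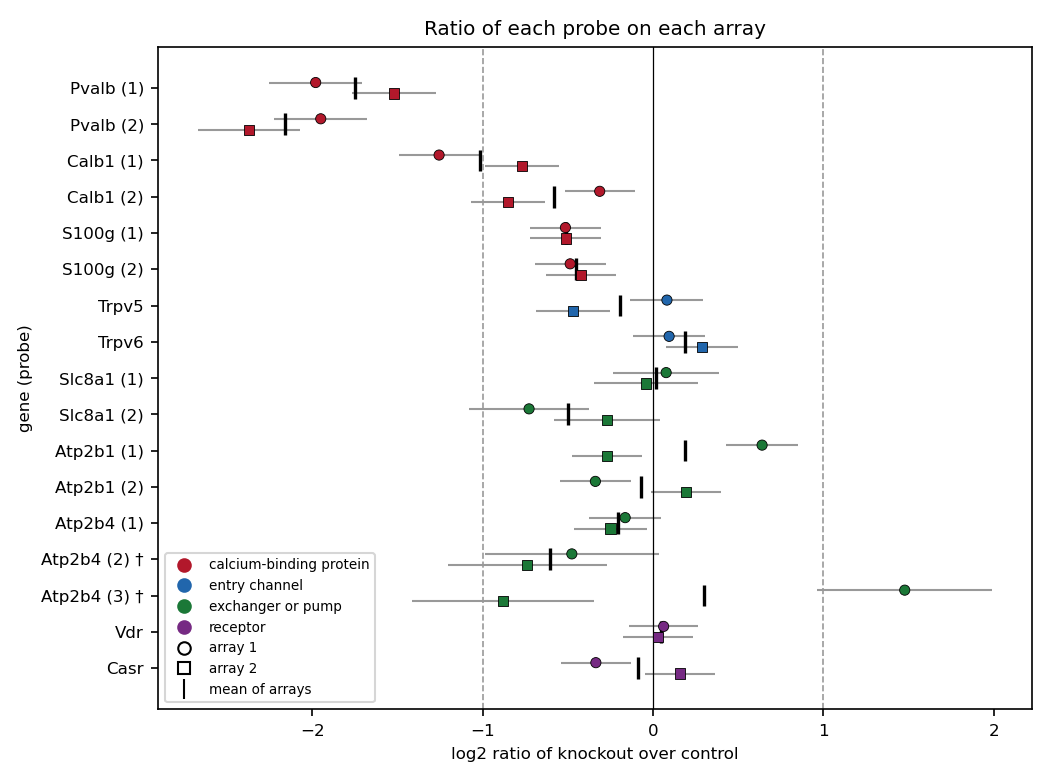
Log2 ratio of knockout over control for each member probe (rows) on array 1 (circles) and array 2 (squares), colored by role, with horizontal bars for the error that the scanner software's error model gives each ratio and a vertical tick for the mean of the arrays; dashed lines mark 2-fold and daggers mark probes not compared. Both *Pvalb* probes lie beyond the 2-fold line on both arrays, the *S100g* probes lie at -0.51 to -0.42, and the ratios of *Trpv5*, *Atp2b1* and *Casr* stand on opposite sides of 0.

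Neither receptor changed by either rule of size. *Vdr*, the nuclear receptor for active vitamin D, read 8055 and 6940 in the knockout against 7715 and 6794 in the control, with log2 ratios of 0.06 and 0.03 and a mean of 0.05 ± 0.02. Its direction was shared by both arrays but its size amounted to 103% of control. *Casr*, the calcium-sensing receptor, read 1069 and 1082 against 1349 and 969. Its control signals enclosed both knockout signals, and the log2 ratios of -0.34 and 0.16 gave a mean of -0.09 ± 0.35.

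The decrease of the calcium-binding proteins was next set beside other genes of calcium handling, each read at its brightest probe. Over all 19707 genes so read, 0.568% were lower and 0.502% higher by at least 1.5-fold on each array, and 15.6% were lower and 12.1% higher on both arrays at any size. Among 11 relatives of the 10 genes (other NCX and NCKX exchangers, PMCA pumps, TRPV channels, calretinin and oncomodulin), 7 were measured and none passed the 1.5-fold rule. Their median log2 ratio was -0.0018 and 4 of them, among them *Calb2* (calretinin), were not well above background in any channel. The closest relative of parvalbumin measured, *Ocm* (oncomodulin), had -0.22 and 0.07 on the 2 arrays.

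Genes of the vitamin D and parathyroid hormone axis and binding partners of the channels did not move by the 1.5-fold rule either. All 15 were measured, 1 was lower and 2 were higher on both arrays, and their median log2 ratio was 0.01. Named after their values were seen, *Cyp24a1*, which inactivates vitamin D and is a classical target of its receptor, read 7349 and 5043 in the knockout against 3497 and 4890 in the control (log2 ratios 1.07 and 0.04), a difference carried by array 1. *Klk1*, the tissue kallikrein of the connecting tubule, had -0.10 and -0.62, and *Pth1r*, the parathyroid hormone receptor, had -0.34 and 0.25. The 6 genes of calcium sensing and the paracellular route, including the claudins *Cldn14*, *Cldn16* and *Cldn19*, had a median of -0.03, with 2 lower and 1 higher on both arrays.

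Intracellular stores and store-operated entry were represented by 13 genes. Of these 11 were measured, 5 were lower and 1 higher on both arrays, and none passed the 1.5-fold rule, at a median of -0.17. Among 18 measured of 20 other S100 proteins and calmodulins, 6 were lower and 3 higher on both arrays, with a median of 0.02. One gene of this list passed the 1.5-fold rule. *Calml3*, a calmodulin-like protein of epithelia, read 96.7 and 84.4 in the knockout against 40.4 and 33.8 in the control, a mean log2 ratio of 1.29 ± 0.04. *S100a6*, also known as calcyclin and chosen after its values were seen, was higher on both arrays, with 6066 and 6314 against 4735 and 3147 and a mean log2 ratio of 0.68 ± 0.46.

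**Figure D4:**
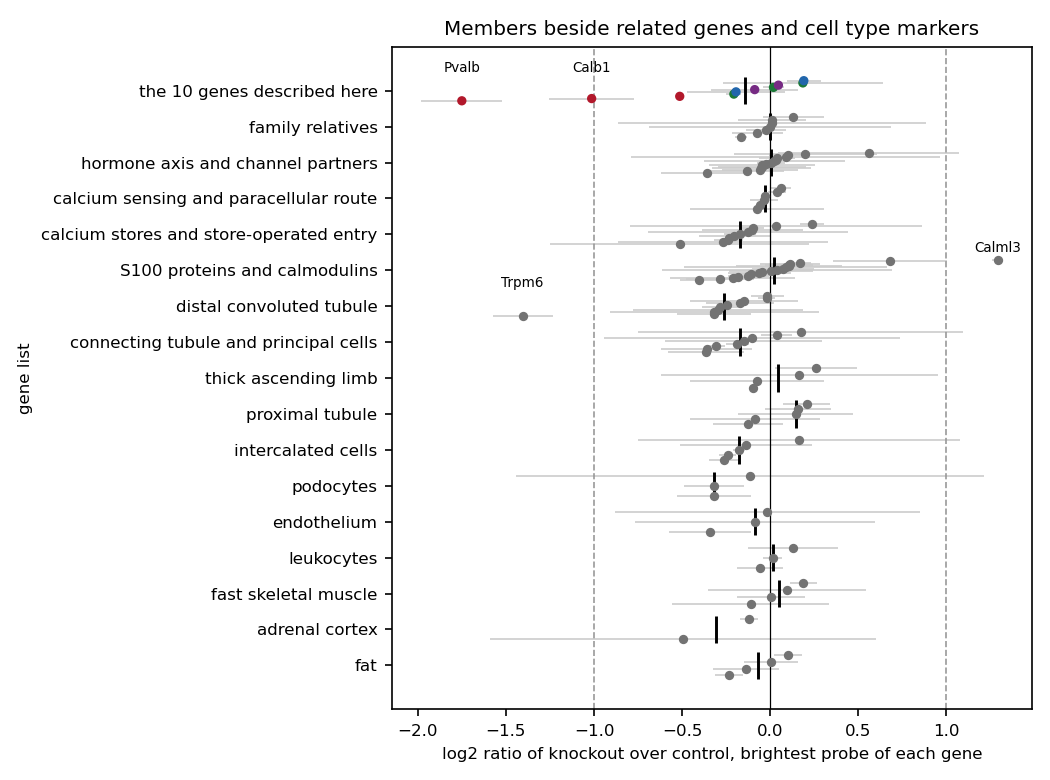
Log2 ratio of knockout over control at the brightest probe of each gene, for the 10 genes described here (colored by role) and for lists of related genes and cell type markers; points are means of the arrays, grey lines join the arrays and black ticks are list medians. Beyond the dashed 2-fold lines lie *Pvalb* and *Calb1* among the 10 genes, *Trpm6* among markers of the distal convoluted tubule and *Calml3* among S100 proteins and calmodulins.

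Markers of the segments that express these genes were read beside them. All 10 markers of the distal convoluted tubule were measured. Only *Trpm6*, the apical magnesium channel, was lower by at least 1.5-fold on each array, with 447 and 312 in the knockout against 1051 and 931 in the control and a mean log2 ratio of -1.40 ± 0.24, between the values of the *Pvalb* and *Calb1* brighter probes. The defining marker *Slc12a3*, the thiazide-sensitive sodium-chloride cotransporter, read 1779 and 2621 against 3055 and 2303, with log2 ratios of -0.78 and 0.19. Of the 10, 4 were lower and none higher on both arrays, and the median was -0.26. The summed signal was 254465 and 179516 in the knockout against 256508 and 199495 in the control. Most of that sum came from *Fxyd2* alone, with 150456 and 97633.1 in the knockout against 142758 and 105229 in the control. The 8 markers of the connecting tubule, where calbindin-D28k is abundant, and of principal cells had a median of -0.17. Of these, 4 were lower and none higher on both arrays. Their summed signals were 132788 and 100725 against 154600 and 128937, of which *Klk1* alone gave 92061.2 and 59260.6 against 98974.5 and 90975.1. The part of these shifts in the ratios of *Pvalb*, *Calb1* and *S100g* was not tested.

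Markers of other cells shifted by less than the brighter *Pvalb* and *Calb1* probes. The median log2 ratio was 0.04 for the thick ascending limb, 0.14 for the proximal tubule, -0.18 for intercalated cells, -0.32 for 3 podocyte markers, -0.08 for endothelium, 0.01 for leukocytes, -0.31 for the 2 measured markers of adrenal cortex and -0.07 for fat. None of these markers passed the 1.5-fold rule on each array.

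The mean ratios of the calcium-binding proteins were next compared under other treatments of the same spots. The brighter *Pvalb* probe lay between -1.98 and -1.52 and the dimmer one between -2.37 and -1.39, where the highest value came from loess with a normexp correction and an offset of 50 and loess without background correction gave -1.88. The ranges were -1.26 to -0.77 for the brighter and -0.85 to -0.31 for the dimmer *Calb1* probe, and -0.55 to -0.51 and -0.49 to -0.42 for *S100g*. These ranges include each array taken alone. Where the signals were only background-subtracted and centred on the array median, without a fit to the dye bias, the mean ratios of the 6 probes stayed below 0, but array 1 alone read higher in the knockout for both *S100g* probes (0.50 and 0.48) and for the dimmer *Calb1* probe (0.34). Under that treatment only both *Pvalb* probes and the brighter *Calb1* probe were lower on both arrays.

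**Figure D5:**
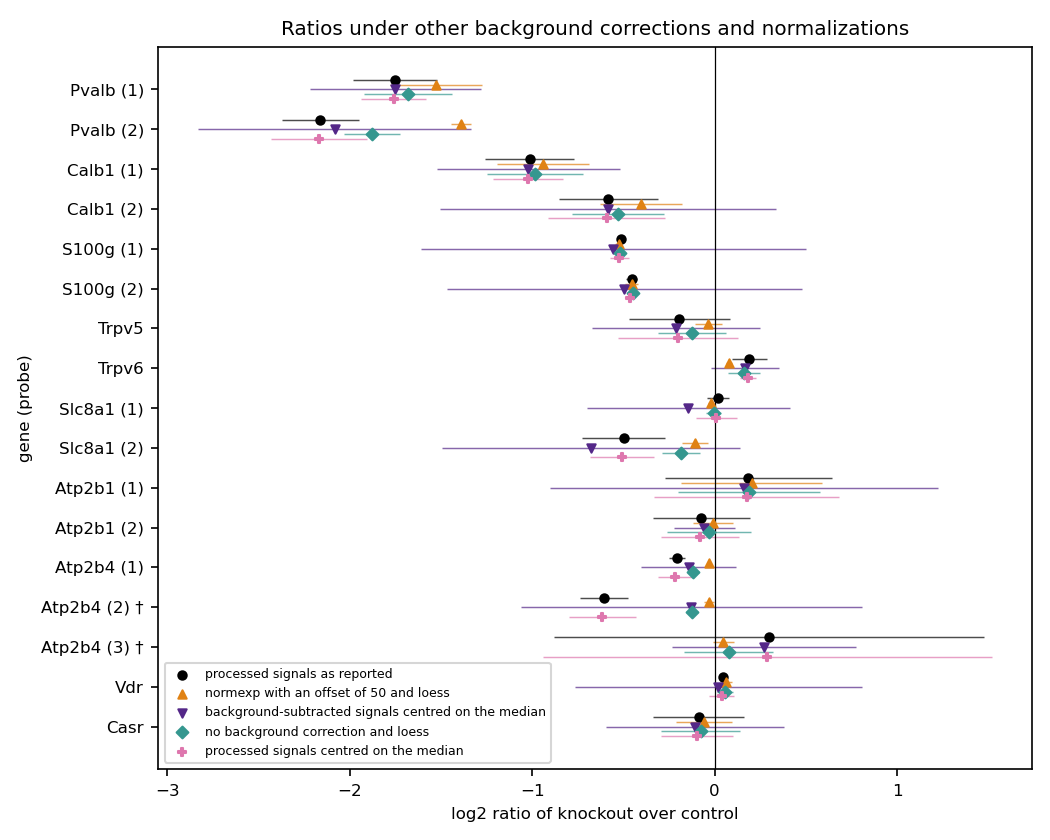
Mean log2 ratio of knockout over control of each member probe (rows) under 5 treatments of the signals (symbols), with lines joining the 2 arrays; daggers mark probes not compared. The symbols of *Pvalb*, *Calb1* and *S100g* lie below 0 under each treatment drawn, and the long purple lines show how far the arrays separate when the dye bias is not fitted.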

How the data were processed

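Kidney RNA of both genotypes was measured on 2 Agilent arrays (2 colours each) with exchanged dyes. Per the file headers, the authors' scanner software (Agilent Feature Extraction 10.7.3.1; the submitters' processing notes name 10.5.1.1) made the processed signal intensity used here by subtracting background, removing spatial trends and normalizing the dyes within each array. As alternatives served the deposited log10 ratios, which are Cy5 over Cy3 in the scanner output and knockout over control in the authors' value table. After the scanner ratios were turned to knockout over control, both sources differed by at most 0.00492. Deposited flags for uneven or outlying spots removed 141 and 175 of 43020 spots; none was a member spot, and no member spot was saturated.

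For each probe and array, knockout signal was divided by control signal as the dye labels assign them, taken to log2 and averaged over the arrays. A probe was compared where, on each array, the software called it well above background in one and the same genotype. Each member probe had 1 spot per array. A probe counted as changed by size: a mean of at least 2-fold in a shared direction, or 1.5-fold on each array. As the arrays may carry the same RNA, no test between genotypes is reported as a result. Alternatives were normexp (offset 50) with loess, loess without background correction, median centring, each array alone, limma 3.58.1 (R 4.3.3) and the methods' t-test. For arrays, their number limits the precision. Every member probe was named, with *Cnnm2*, *Trpm6*, *Slc12a3*, list genes changed by 1.5-fold on each array and markers bearing on a member. The members and lists were chosen with earlier results of these data known. The calculations were tested on simulated data with changes put in that were larger than any mean ratio of a member probe. How well smaller changes are found was not tested.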

Additional observations from a re-analysis of the deposited data

How the results depend on the processing

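The 3 probes that were lower by at least 2-fold (both of *Pvalb* and 1 of *Calb1*) were counted as 0 when an adjusted p was also required, both by the methods' t-test after Benjamini-Hochberg adjustment and by limma with an adjusted p under 0.1; at an unadjusted p under 0.05, limma called 3 of the 15 member probes (271 of all 24593 probes) and the methods' t-test 2 (580 of all probes), both of *S100g*. With 2 arrays, no probe of the 24593 passed either adjusted test. The 2-fold call of *Calb1* also ended, leaving the 2 *Pvalb* probes, with loess (with or without a normexp correction) and with the methods' t-test at p under 0.1 without adjustment, and its 1.5-fold call ended with background-subtracted signals, at -0.52 on array 1. Leaving out 1 array at a time gave 2 to 3 member probes lower and 0 to 1 higher by 2-fold, 4 to 6 lower and 0 to 2 higher by 1.5-fold, and 10 to 13 lower and 4 to 6 higher at any size; array 2 alone gave the 6 lower by 1.5-fold and the 13 lower at any size, and array 1 alone gave the 2 and the 6 higher. A single array also called far more of all probes: 3.49% to 3.97% lower by 2-fold, 9.44% to 10.2% lower by 1.5-fold and 47.8% to 54.5% lower at any size, with 16 to 17 member probes above background. The shares of all probes called higher were 3.55% to 5.03% by 2-fold, 8.52% to 13.3% by 1.5-fold and 45.5% to 52.2% at any size. With background-subtracted signals centred on the median, 3 probes were lower and 0 higher on both arrays, against 8 and 2 as reported, while the shares of all probes fell to 4.75% and 4.47%; this treatment leaves the dye bias in place, and the median over the probes compared was then 0.50 on array 1 and -0.56 on array 2. With processed signals centred on the median, 1 probe was higher on both arrays instead of 2, since *Vdr* on array 2 moved from 0.03 to -0.03. Every ratio pairs the genotypes within an array, and the methods' t-test is paired over the arrays. Of the 17 mean ratios, 5 moved by more than their SD between arrays with normexp, 5 with plain background subtraction, 3 with loess alone and 1 with centring. The number of mice behind each RNA is not known here, so the spread between animals is not measured.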
